A study of Sus scrofa with 10 samples.

Results

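This account covers the calcium handling, sodium channel and calcium channel genes of the pig right ventricle. They were chosen by name from a list of 43 genes, and 38 of them had a row in the expression table, which holds 12378 genes with a symbol and 3260 without one. JPH2, FXYD1, SCN4B, HCN4 and S100A13 matched no row by symbol and are not analysed here. Right ventricular biopsies came from 5 pigs with CTEPH (chronic thromboembolic pulmonary hypertension, a pressure overload of the right heart caused by clots that do not dissolve) and 5 Sham pigs, with 1 RNA library per pig. The CTEPH libraries are s1, s3, s4, s5 and s9, and the Sham libraries are s2, s6, s7, s8 and s10. The labels give the tissue and the group, while strain, age, sex, how CTEPH was produced and how long it lasted are not stated in what was used here. The design asks which transcripts differ between the CTEPH and the Sham ventricle.

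In a cardiomyocyte, the action potential opens L-type calcium channels in the cell membrane. The calcium that enters opens ryanodine receptors of the sarcoplasmic reticulum, the internal calcium store, and the released calcium starts contraction. Relaxation follows when the pump SERCA returns calcium to the store and the sodium-calcium exchanger moves it out of the cell, driven by the sodium gradient that the sodium-potassium pump maintains. Calmodulin and its kinase CaMKII adjust these steps from beat to beat.

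Each value below is a deposited log2 value, on which 1 unit is a 2-fold difference, and each fold change is CTEPH minus Sham on that scale with its standard error (SE). Genes were tested with limma over the whole table, and a gene is said to rise or fall at a Benjamini-Hochberg adjusted p under 0.05. By this rule 1 of the 38 genes rose, ATP1B1, and 0 fell, against 4.62% of all genes called (2.83% higher and 1.79% lower). The groups did not overlap in 2 of the 38 genes, ATP1B1 higher and CAMK2D lower, against 6.57% of all genes (3.7% higher and 2.87% lower). A further 8 genes had an unadjusted p under 0.05, 4 higher (CASQ1, FKBP1B, SLN and CACNA2D1) and 4 lower (ASPH, CACNA1D, CAMK2D and CAMK2G), so that 9 of 38 did in all, against 20.3% of all genes. The median fold change of the 38 genes was -0.05, and that of all genes was -0.03. For 28 of the 38 genes (73.7%) the 95% interval of the fold change lay within 1 log2 unit of 0, as it did for 67.1% of all genes. The plot of fold changes shows the genes by role.

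**Figure D1:**
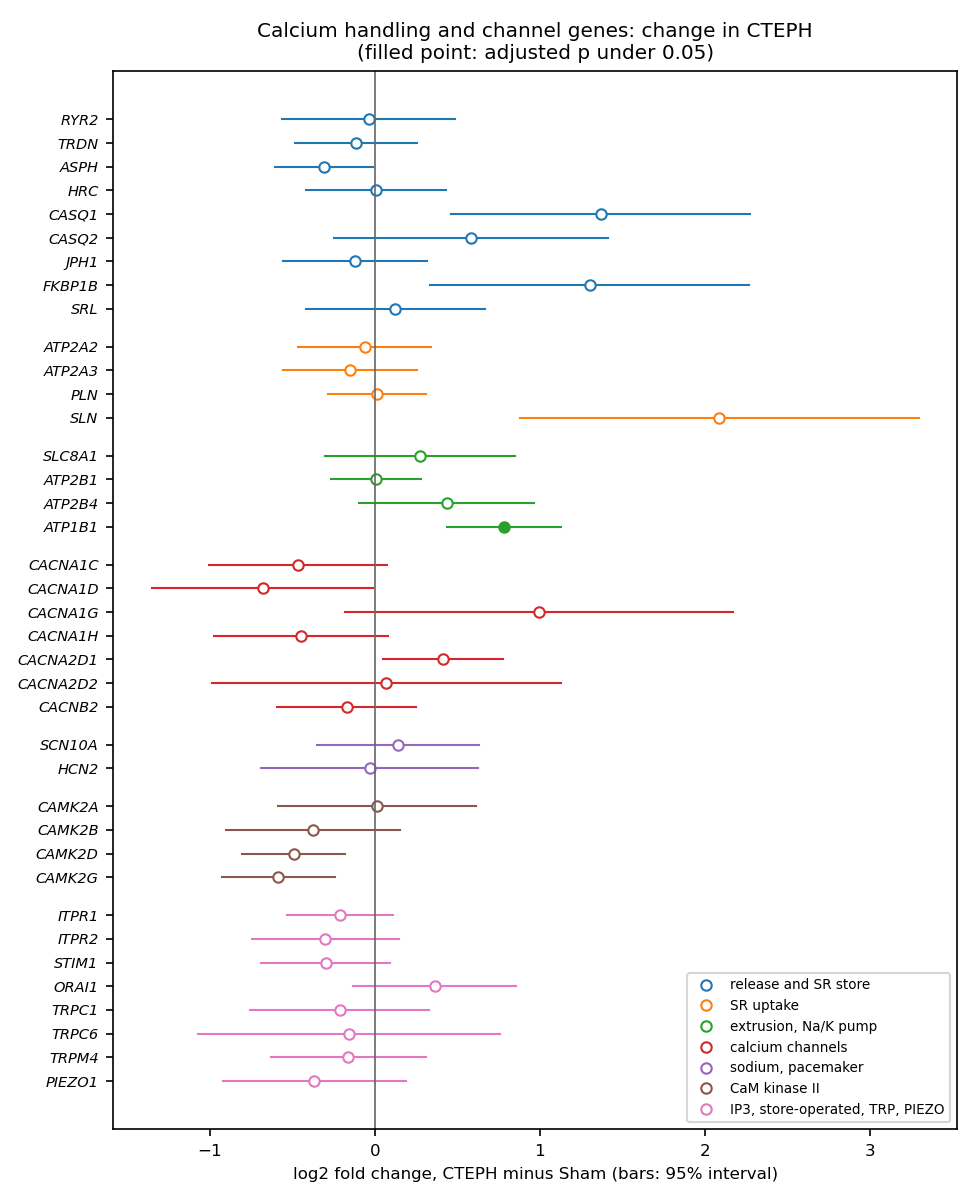
Fold change of each of the 38 genes (x axis, log2, CTEPH minus Sham; bars, 95% interval of the limma fit; 5 pigs per group), grouped by role on the y axis. The only filled point, for an adjusted p under 0.05, is ATP1B1 at 0.78, and the widest displacement is that of SLN at 2.09.

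The libraries were of similar depth in both groups, with relative depths of 0.724 to 1.53 in CTEPH and 0.769 to 1.45 in Sham, read from whole counts recovered from the low values. Of 18 cardiomyocyte markers 15 were measured, and their summed log2 level was 21.63 to 21.74 in CTEPH and 21.58 to 21.91 in Sham. The deposited values have nearly the same distribution in every library, and the most abundant of these markers take the same few top values. Their sum therefore had little room to differ and does not measure cardiomyocyte content. Single genes of this list differed. CSRP3 rose by 0.95 ± 0.21 (limma adjusted p = 0.0239), and the groups did not overlap in TPM1 (higher) and MYOM2 (lower), which did not pass. Some markers of other cells and states differed more in their sums. The sums of fibroblast, smooth muscle and pericyte, macrophage, lymphocyte and adipocyte genes overlapped between the groups. The summed level of 6 proliferation genes was 10.88 to 12.59 in CTEPH and 8.82 to 9.39 in Sham, that of 5 Schwann cell and neural genes 8.73 to 9.44 and 9.63 to 10.55, and that of 10 endothelial genes 14.85 to 15.28 and 15.09 to 15.87. In bulk tissue, fewer cells of a type and less RNA per cell cannot be told apart.

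Among the genes that move calcium and sodium out of the cell, ATP1B1 rose. It encodes the beta-1 subunit that carries the catalytic subunit of the sodium-potassium pump to the cell membrane (chromosome 4, 81912543 to 81937015 of Sscrofa11.1). Its values were 14.42 in s1, 14.38 in s3, 14.17 in s4, 14.07 in s5 and 13.66 in s9 in CTEPH, and 13.44 in s2, 13.07 in s6, 13.42 in s7, 13.54 in s8 and 13.32 in s10 in Sham. Each CTEPH library exceeded each Sham library, with s9 nearest to them. The mean rose from 13.36 ± 0.18 to 14.14 ± 0.31 (mean ± SD of 5 pigs), a fold change of 0.78 ± 0.16 or 1.72-fold (limma adjusted p = 0.0151). ATP1B1 stayed called in all 10 refits that each left out 1 library (limma adjusted p of 0.00267 to 0.0428). Of the other pump genes on the lists, the beta-2 subunit gene ATP1B2 was at 7.61 in s1, 8.57 in s3, 8.46 in s4, 8.18 in s5 and 8.19 in s9 in CTEPH, and 8.68 in s2, 8.94 in s6, 9.07 in s7, 9.30 in s8 and 8.82 in s10 in Sham. The groups did not overlap, with CTEPH lower, and the difference of -0.76 ± 0.20 just missed the threshold (limma adjusted p = 0.0508).

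SLC8A1, the sodium-calcium exchanger, was at 14.07 in s1, 15.08 in s3, 14.97 in s4, 15.14 in s5 and 14.32 in s9 in CTEPH, and 15.24 in s2, 14.02 in s6, 14.45 in s7, 13.98 in s8 and 14.52 in s10 in Sham. The groups overlapped, and the highest value was that of Sham library s2. Its difference of 0.27 ± 0.27 did not pass (limma adjusted p = 0.617). The plasma membrane calcium pumps ATP2B1 and ATP2B4 differed by 0.01 ± 0.13 and 0.44 ± 0.24 (limma adjusted p = 0.976 and 0.347). The interval for ATP2B1 was the narrowest of the 38, at -0.26 to 0.28.

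The pump that refills the store and its main regulator were at nearly the same level in both groups. ATP2A2, which encodes the cardiac pump SERCA2, was at 16.50 in s1, 16.54 in s3, 16.85 in s4, 16.90 in s5 and 16.73 in s9 in CTEPH, and 17.33 in s2, 16.50 in s6, 16.57 in s7, 16.50 in s8 and 16.93 in s10 in Sham. The Sham values, with s2 on top, spanned all the CTEPH values. PLN, phospholamban, the small membrane protein that restrains SERCA2 until it is phosphorylated, was at 15.89 in s1, 15.80 in s3, 16.04 in s4, 16.14 in s5 and 16.04 in s9 in CTEPH, and 16.17 in s2, 15.98 in s6, 15.91 in s7, 15.72 in s8 and 16.06 in s10 in Sham. The differences were -0.06 ± 0.19 for ATP2A2 and 0.01 ± 0.14 for PLN (limma adjusted p = 0.892 and 0.969). Their 95% intervals, 0.724 to 1.27 and 0.823 to 1.24 as fold of Sham, do not reach a 2-fold change of either gene in either direction. ATP2A3, the pump isoform known from endothelial and blood cells, differed by -0.15 ± 0.19 (limma adjusted p = 0.71).

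SLN showed the largest difference of the 38 genes, without passing the threshold. It encodes sarcolipin, a SERCA inhibitor related to phospholamban that is typical of the atria and of skeletal muscle (chromosome 9, 36232955 to 36242405 of Sscrofa11.1). Its log2 values were 6.04 in s1, 8.70 in s3, 7.41 in s4, 7.55 in s5 and 5.60 in s9 in CTEPH, and 4.12 in s2, 4.50 in s6, 5.21 in s7, 6.16 in s8 and 4.87 in s10 in Sham. Libraries s3, s4 and s5 lay above every Sham library, while s1 and s9 lay below Sham library s8. The recovered counts, whose unit may be 1 or 2 reads, were 31 in s1, 191 in s3, 142 in s4, 102 in s5 and 17 in s9 in CTEPH, and 9 in s2, 18 in s6, 13 in s7, 29 in s8 and 12 in s10 in Sham. Scaled by relative depth, the mean count was 5.14 times as high in CTEPH (a ratio of means of counts), and the fitted difference of log2 means is 4.25-fold. The fold change was 2.09 ± 0.56, with a 95% interval of 0.88 to 3.29 (limma adjusted p = 0.052). SLN passed in 3 of the 10 refits that left out 1 library, those without s1, s9 or s8 (limma adjusted p = 0.0327, 0.0188 and 0.0439), and not in the others (up to 0.115). The ratio of ATP2A2 to SLN within a library, in which a shift common to all genes of a library cancels, was lower in CTEPH by 2.15 log2 units, with 9.65 ± 1.25 in CTEPH and 11.80 ± 1.05 in Sham (mean ± SD of 5 pigs). Its two-sided exact permutation p was 0.0238, or 0.119 after Benjamini-Hochberg adjustment over the 5 ratios computed.

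Sarcolipin is an atrial transcript, so atrial markers are given beside it. Of 8 atrial genes 5 were measured, and their summed log2 level was 12.26 to 14.03 in CTEPH and 11.58 to 12.98 in Sham. It was highest in s3 (14.03), and the highest Sham library was s8 (12.98), the Sham library with the most SLN. In s9, the CTEPH library with the least SLN, the sum was 13.19, near s4 (13.20) and s5 (13.36). DKK3 was the highest of the 5 genes in every CTEPH library (11.43 to 13.68, the top in s3). It was also the highest in Sham libraries s7, s8 and s10 (10.01, 11.78 and 10.34), so the sum there was largely that of DKK3. Of the 5 genes DKK3 rose, by 2.22 ± 0.42 (limma adjusted p = 0.0102), and the other 4 did not pass. Given after their values were seen, these were MYL4 at 1.73 ± 0.77, GJA5 at 0.02 ± 0.24, KCNJ3 at -0.04 ± 0.32 and NR2F2 at -0.45 ± 0.20, so that the markers did not share a direction (limma adjusted p of 0.225 to 0.974). MYL4, the atrial light chain gene, was at 8.45 to 10.78 in CTEPH and 5.09 to 10.49 in Sham, where its highest library was s8. No measured atrial marker was at 0 in any library, and MYL7 and BMP10 were not matched. The part of atrial-type transcripts in the SLN difference was not tested.

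**Figure D2:**
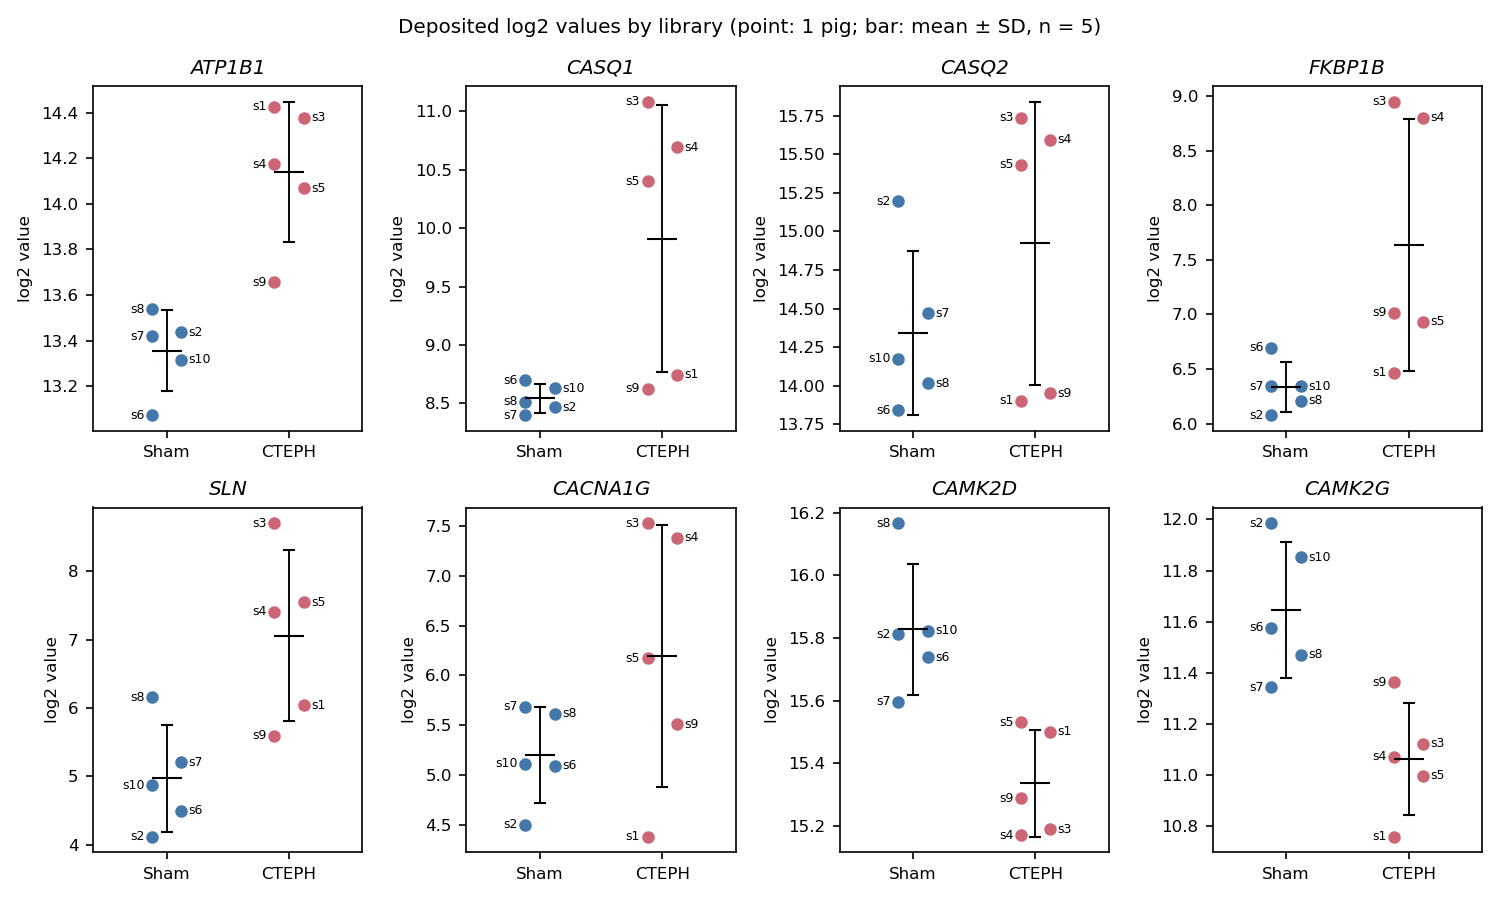
Deposited log2 value (y axis) of 8 genes in each library (points, 1 pig each; bars, mean ± SD, n = 5 per group). In CASQ1 the CTEPH libraries s3, s4 and s5 sit at 10.40 to 11.08 and s1 and s9 at 8.74 and 8.63, next to the Sham libraries, while in ATP1B1 and CAMK2D the groups do not overlap.

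Release genes of the sarcoplasmic reticulum were measured in 9 members of a list of 10. By limma 0 of the 9 passed, and 3 had an unadjusted p under 0.05 (CASQ1 and FKBP1B higher, ASPH lower). For the genes of the ventricular release complex the differences were small beside their errors. RYR2, the cardiac ryanodine receptor, was at 15.74 in s1, 15.53 in s3, 15.81 in s4, 16.12 in s5 and 14.70 in s9 in CTEPH, and 16.10 in s2, 15.71 in s6, 15.41 in s7, 15.31 in s8 and 15.56 in s10 in Sham. The groups overlapped widely, with s9 the lowest of all libraries, and the difference was -0.04 ± 0.24 with a 95% interval of -0.56 to 0.49 (limma adjusted p = 0.955). Triadin (TRDN), which anchors calsequestrin to the receptor, differed by -0.11 ± 0.17. The luminal calcium-binding protein genes HRC and SRL differed by 0.01 ± 0.20 and 0.13 ± 0.25, and junctophilin 1 (JPH1), which ties the store to the membrane, by -0.12 ± 0.20 (limma adjusted p of 0.762, 0.99, 0.824 and 0.791). ASPH, whose locus also encodes the reticulum protein junctin, was at 12.24 in s1, 12.51 in s3, 12.59 in s4, 12.95 in s5 and 12.72 in s9 in CTEPH, and 12.94 in s2, 12.82 in s6, 12.93 in s7, 12.99 in s8 and 12.87 in s10 in Sham. Of the CTEPH libraries 4 lay below every Sham library and s5 lay among them, and the difference of -0.31 ± 0.14 did not pass (limma adjusted p = 0.224).

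The calsequestrins, which buffer calcium inside the store, separated the CTEPH pigs from one another. CASQ1, the skeletal muscle isoform (chromosome 4, 90276752 to 90288990 of Sscrofa11.1), was at 8.74 in s1, 11.08 in s3, 10.69 in s4, 10.40 in s5 and 8.63 in s9 in CTEPH, and 8.47 in s2, 8.70 in s6, 8.40 in s7, 8.51 in s8 and 8.63 in s10 in Sham. Libraries s3, s4 and s5 stood far above Sham, s1 lay just above it and s9 within it. The recovered counts were 212 in s1, 997 in s3, 1231 in s4, 751 in s5 and 143 in s9 in CTEPH, and 210 in s2, 297 in s6, 126 in s7, 145 in s8 and 168 in s10 in Sham, and the depth-scaled mean was 3.23 times as high in CTEPH. The SD was 1.14 over the CTEPH pigs and 0.12 over the Sham pigs, a ratio of 9.39, the largest of the 38 genes. With this spread the difference of 1.37 ± 0.42 did not pass (limma adjusted p = 0.0839). It passed when s1 or s9 was left out (limma adjusted p = 0.0269 and 0.0208) and in none of the other 8 refits without 1 library (up to 0.181). Of 10 skeletal muscle genes 4 were measured, and their summed level was 5.96 to 7.15 in CTEPH and 5.76 to 7.06 in Sham. By limma 0 of the 4 passed, with 1 (ACTN3) at an unadjusted p under 0.05. Given after their values were seen, the differences were 0.48 ± 0.46 for MYH1, 0.39 ± 0.58 for MYH4, 0.997 ± 0.54 for TNNC2 and -1.47 ± 0.59 for ACTN3 (limma adjusted p of 0.175 to 0.757). All 4 were low, at 2.01 to 6.03 over the libraries, though none was at 0, and MYH2, TNNT3, TNNI2, MYLPF, MYOD1 and PAX7 were not matched. The part of skeletal muscle transcripts in the CASQ1 difference was not tested.

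CASQ2, the cardiac calsequestrin, followed the same libraries. Its values were 13.90 in s1, 15.74 in s3, 15.60 in s4, 15.43 in s5 and 13.95 in s9 in CTEPH, and 15.20 in s2, 13.84 in s6, 14.47 in s7, 14.02 in s8 and 14.17 in s10 in Sham. Libraries s3, s4 and s5 were again above every Sham library and s1 and s9 were within the Sham range, whose top was s2. The difference was 0.59 ± 0.38 (limma adjusted p = 0.43). The ratio of CASQ2 to RYR2 was -0.66 ± 0.77 in CTEPH and -1.28 ± 0.39 in Sham on the log2 scale (mean ± SD of 5 pigs; two-sided exact permutation p = 0.143, 0.238 adjusted over the 5 ratios). With 1 library left out at a time the difference was 0.41 to 0.92. Without s1 it was 0.92, where the groups did not overlap and the exact permutation p was the smallest possible (0.00794, not adjusted over the ratios), and in the other 9 cases the exact p was 0.135 to 0.286. Transcript lengths enter such a ratio equally in every library, so it is read between libraries and not as a comparison of the 2 genes' levels.

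FKBP1B encodes calstabin 2, the binding protein of the ryanodine receptor that steadies its closed state (chromosome 3, 114623529 to 114636200 of Sscrofa11.1). It was at 6.47 in s1, 8.95 in s3, 8.80 in s4, 6.93 in s5 and 7.02 in s9 in CTEPH, and 6.08 in s2, 6.69 in s6, 6.34 in s7, 6.21 in s8 and 6.34 in s10 in Sham. Libraries s3 and s4 were far above the rest, s9 and s5 lay just above Sham, and s1 lay within it. In counts this was 42 in s1, 226 in s3, 352 in s4, 68 in s5 and 48 in s9 in CTEPH, and 37 in s2, 77 in s6, 29 in s7, 30 in s8 and 32 in s10 in Sham, a depth-scaled ratio of 3.28. The difference of 1.30 ± 0.45 did not pass (limma adjusted p = 0.121), except in the refit without s1 among the 10 that left out 1 library (limma adjusted p = 0.0452, with up to 0.246 in the others).

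**Figure D3:**
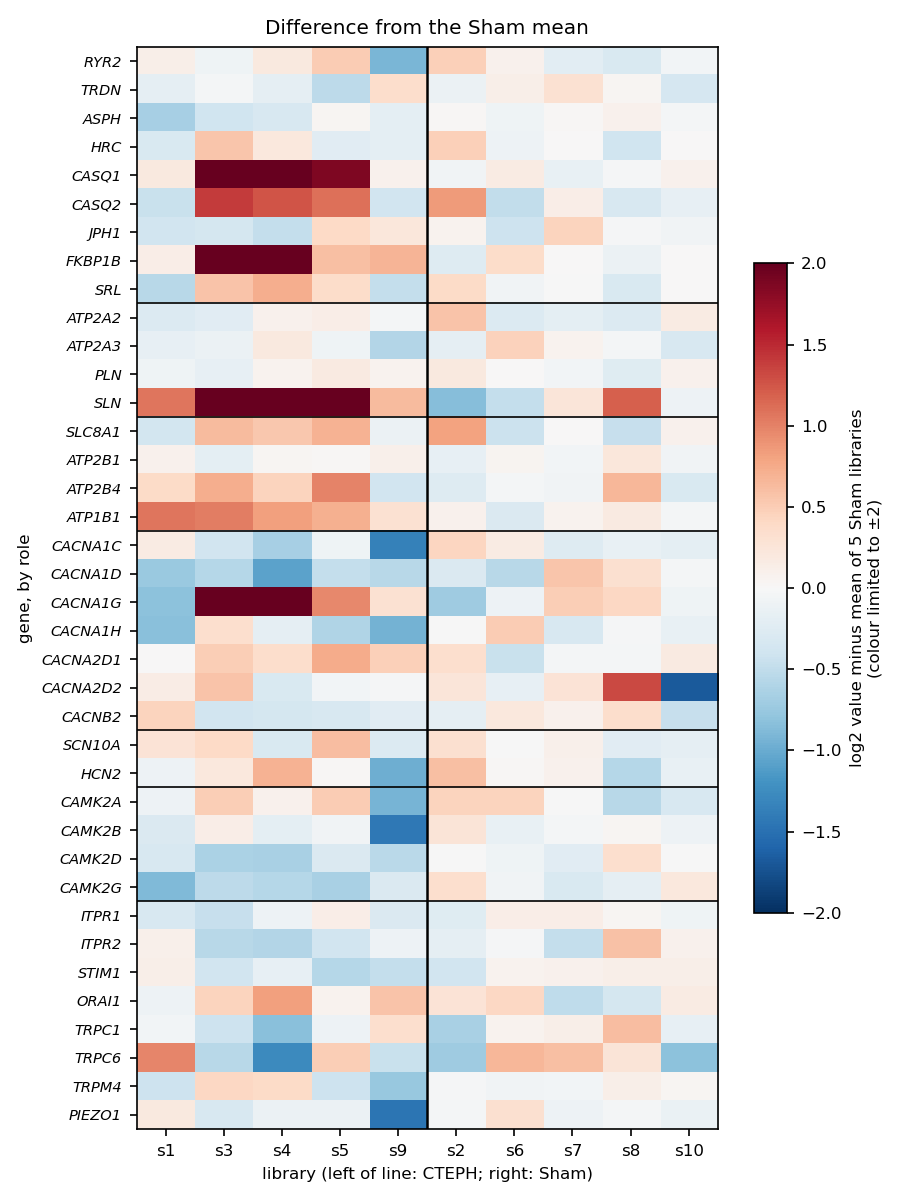
Log2 value of each of the 38 genes minus the mean of the 5 Sham libraries (colour, limited to ±2), with genes by role in rows and libraries in columns (CTEPH left of the line, Sham right). CASQ1, CASQ2, SLN and CACNA1G are raised in s3, s4 and s5 and less or not at all in s1 and s9, and s9 is lowest in CACNA1C, CAMK2B and PIEZO1.

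A wide spread between CTEPH pigs was about as common among these genes as in the table as a whole. The SD in CTEPH was over 2 times that in Sham in 9 of the 38 genes (23.7%), against 23.0% of all genes. These were ASPH, CASQ1, FKBP1B, SRL, CACNA1C, CACNA1G, CAMK2B, TRPM4 and PIEZO1. The reverse held for ATP2A2 and CACNA2D2, 2 genes whose Sham spread was set mainly by s2 and by s8 and s10. Counted by library, 36.8% of the 38 genes lay outside the Sham range in s1, 60.5% in s3, 57.9% in s4, 44.7% in s5 and 55.3% in s9, where all genes gave 49.0% to 50.9%. Above the Sham range were 14 genes in s3, 11 each in s4 and s5, 5 in s9 and 4 in s1, and below it 16 in s9, 11 in s4, 10 in s1, 9 in s3 and 6 in s5. Of all genes, 22.7% to 24.7% lay above the Sham range and 24.6% to 28.2% below it, depending on the library.

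Of the calcium channel genes, 7 of 7 were measured and by limma 0 passed, with 2 at an unadjusted p under 0.05 (CACNA2D1 higher, CACNA1D lower). CACNA1C, the pore of the L-type channel that triggers release, was at 12.41 in s1, 11.86 in s3, 11.57 in s4, 12.15 in s5 and 10.89 in s9 in CTEPH, and 12.66 in s2, 12.41 in s6, 11.99 in s7, 12.10 in s8 and 12.05 in s10 in Sham. Libraries s3, s4 and s9 lay below every Sham library and s1 and s5 lay among them. The difference was -0.47 ± 0.25 (limma adjusted p = 0.319). The accessory subunit gene CACNA2D1, which helps the pore to reach the membrane, was at 12.25 in s1, 12.73 in s3, 12.60 in s4, 12.98 in s5 and 12.72 in s9 in CTEPH, and 12.58 in s2, 11.80 in s6, 12.20 in s7, 12.20 in s8 and 12.42 in s10 in Sham, with 4 CTEPH libraries above every Sham library. It differed by 0.41 ± 0.17 in the opposite direction to CACNA1C, and neither passed (limma adjusted p = 0.189 for CACNA2D1). The beta subunit gene CACNB2 differed by -0.17 ± 0.20 and CACNA2D2, which was near 5 in most libraries, by 0.07 ± 0.49 (limma adjusted p = 0.676 and 0.958).

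The remaining pore genes were low or split between pigs. CACNA1D, the L-type pore of pacemaker and atrial cells, had recovered counts of 14 in s1, 16 in s3, 19 in s4, 19 in s5 and 12 in s9 in CTEPH, and 23 in s2, 27 in s6, 27 in s7, 26 in s8 and 20 in s10 in Sham. Each CTEPH count was at or under 19 and each Sham count at or over 20, but the libraries differ in depth, and on the deposited scale the groups overlapped. Its fold change was -0.68 ± 0.31 and the depth-scaled ratio 0.601 (limma adjusted p = 0.24). CACNA1G, a T-type channel of the conduction system and of the immature ventricle, was at 4.38 in s1, 7.53 in s3, 7.38 in s4, 6.17 in s5 and 5.51 in s9 in CTEPH, and 4.50 in s2, 5.09 in s6, 5.69 in s7, 5.61 in s8 and 5.11 in s10 in Sham. Libraries s3, s4 and s5 lay above every Sham library, s9 within the Sham range, and s1 below it. Its counts were 9 to 140 in CTEPH and 12 to 26 in Sham, and the difference of 0.99 ± 0.54 did not pass (limma adjusted p = 0.332). The other T-type gene, CACNA1H, had the opposite sign at -0.44 ± 0.24 (limma adjusted p = 0.334). The summed level of 7 measured conduction system markers was 11.69 to 12.03 in CTEPH and 11.97 to 12.36 in Sham. By limma 0 of the 7 passed, and their fold changes did not share a direction, with 2 positive and 5 negative. Given after their values were seen, CPNE5 was higher and TBX18 and IRX3 were lower at an unadjusted p under 0.05. They differed by 1.53 ± 0.60, -0.64 ± 0.25 and -0.35 ± 0.15 (limma adjusted p = 0.169, 0.177 and 0.225). In CTEPH, CPNE5 was at 6.74 in s1, 9.52 in s3, 8.50 in s4, 8.19 in s5 and 5.60 in s9. In Sham it was at 5.64 to 6.96. The part of conduction cells in the CACNA1G values was not tested.

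Of the sodium channel and pacemaker genes 2 of 4 were measured, and both differed by less than their SE between the groups. SCN10A, a sodium channel gene known from sensory neurons and cardiac conduction, had counts of 60 to 168 in CTEPH and 66 to 144 in Sham, and HCN2, a pacemaker channel gene, of 36 to 250 and 51 to 172. They differed by 0.14 ± 0.23 and -0.03 ± 0.30 (limma adjusted p = 0.776 and 0.972). By limma 0 of the 2 passed, also at an unadjusted p under 0.05.

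CaMKII phosphorylates the ryanodine receptor, phospholamban and the L-type channel, and is built from the products of 4 genes, all of them measured. CAMK2D, the main cardiac isoform (chromosome 8, 108916019 to 109221317 of Sscrofa11.1), was at 15.50 in s1, 15.19 in s3, 15.17 in s4, 15.53 in s5 and 15.29 in s9 in CTEPH, and 15.81 in s2, 15.74 in s6, 15.60 in s7, 16.17 in s8 and 15.82 in s10 in Sham. Every CTEPH library lay below every Sham library, which held for no other of the 38 genes. The difference was -0.49 ± 0.15 with a 95% interval of -0.80 to -0.18, or 0.712 of the Sham level, and missed the threshold (limma adjusted p = 0.0742). CAMK2G (chromosome 14, 76535095 to 76632381) was at 10.76 in s1, 11.12 in s3, 11.07 in s4, 10.997 in s5 and 11.36 in s9 in CTEPH, and 11.99 in s2, 11.58 in s6, 11.34 in s7, 11.47 in s8 and 11.85 in s10 in Sham. Only s9 overlapped Sham, above s7. Its difference of -0.58 ± 0.16 also missed the threshold narrowly (limma adjusted p = 0.0533), and passed in 1 of the 10 refits without 1 library, that without s9 (limma adjusted p = 0.0295, up to 0.130 in the others). CAMK2D passed in 0 of these 10 refits (limma adjusted p of 0.0628 to 0.165) and in 1 other alternative, with libraries weighted by how closely they follow the fit (limma adjusted p = 0.0427, and 0.0349 for CAMK2G).

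The other isoforms gave no such order. CAMK2B was at 11.07 in s1, 11.50 in s3, 11.16 in s4, 11.30 in s5 and 9.93 in s9 in CTEPH, and 11.62 in s2, 11.22 in s6, 11.32 in s7, 11.40 in s8 and 11.26 in s10 in Sham, with s9 far below the rest, and CAMK2A at 12.87 to 14.31 in CTEPH and 13.24 to 14.25 in Sham. Their differences were -0.37 ± 0.24 and 0.01 ± 0.28 (limma adjusted p = 0.429 and 0.988). The ratio of CAMK2B to CAMK2D differed by 0.12 log2 units between the groups (two-sided exact permutation p = 0.714, 0.714 adjusted over the 5 ratios).

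The remaining 8 genes release calcium through IP3 receptors, refill stores from outside or conduct cations under stretch. By limma 0 of the 8 passed, with 0 at an unadjusted p under 0.05 as well, and 7 of the 8 fold changes were negative. The IP3 receptor genes ITPR1 and ITPR2 differed by -0.21 ± 0.15 and -0.30 ± 0.21. The store sensor STIM1 and the channel ORAI1 that it opens had opposite signs, -0.30 ± 0.18 and 0.36 ± 0.23. The stretch-gated channel gene PIEZO1 differed by -0.37 ± 0.26, with s9 at 8.82 and the other CTEPH libraries at 9.97 to 10.48, against 10.15 to 10.60 in Sham. TRPC1, TRPC6 and TRPM4, nonselective cation channels, differed by -0.21 ± 0.25, -0.16 ± 0.42 and -0.16 ± 0.22 (limma adjusted p of 0.389 to 0.875 over the 8 genes). TRPM4 was tight in Sham, at 9.97 to 10.15, and spread on both sides of it in CTEPH, with 9.63 in s1, 10.45 in s3, 10.41 in s4, 9.62 in s5 and 9.27 in s9. HRC ends 1135 bases before TRPM4 starts on chromosome 6 of Sscrofa11.1, and s3 and s4 were the CTEPH libraries with the most of both. In Sham the 2 genes did not go together, as s8 had the least HRC (14.06) and the most TRPM4 (10.15). FKBP1B and CASQ1, on other chromosomes, were also highest in s3 and s4.

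**Figure D4:**
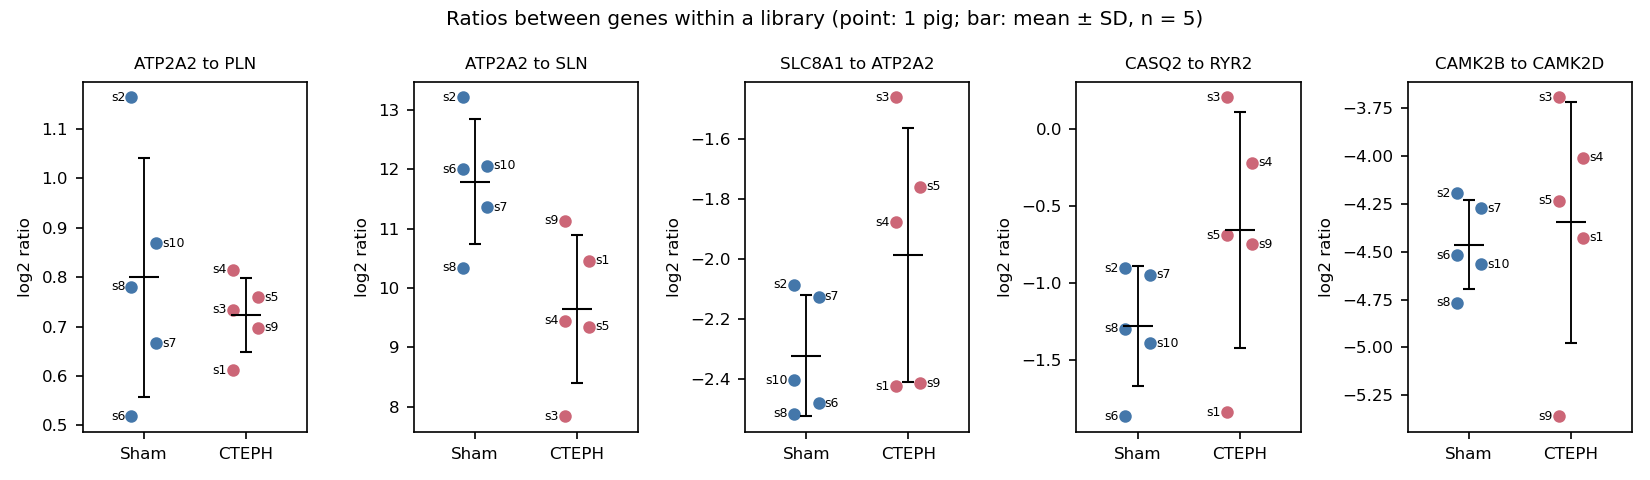
Difference between the log2 values of 2 genes within a library (y axis) for 5 pairs (points, 1 pig each; bars, mean ± SD, n = 5 per group). The ratio of ATP2A2 to SLN is lower in CTEPH by 2.15, with s3 lowest at 7.84, while that of ATP2A2 to PLN lies at 0.61 to 0.82 in CTEPH within the Sham range of 0.52 to 1.16.

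Ratios that describe the balance of uptake and extrusion were compared within libraries. That of ATP2A2 to PLN differed by -0.08 (two-sided exact permutation p = 0.579, 0.714 adjusted over the 5 ratios), and came to 0.015, with the other sign, when s2 was left out. That of SLC8A1 to ATP2A2 was -2.42 in s1, -1.46 in s3, -1.88 in s4, -1.76 in s5 and -2.42 in s9 in CTEPH, and -2.09 in s2, -2.48 in s6, -2.13 in s7, -2.52 in s8 and -2.41 in s10 in Sham. Libraries s3, s4 and s5 lay above every Sham library and s1 and s9 within the Sham range. The difference of 0.34 did not pass (exact permutation p = 0.143, 0.238 adjusted). With 5 libraries per group the smallest two-sided exact p is 0.00794.

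A list of other genes of the same systems gave 100 measured genes, of which 4 rose and 1 fell, close to the 4.62% of all genes called, with a median fold change of -0.03. PRKAR1A, the regulatory subunit that holds protein kinase A inactive until cyclic AMP binds, was at 14.48 in s1, 14.75 in s3, 14.24 in s4, 14.53 in s5 and 13.87 in s9 in CTEPH, and 13.58 in s2, 13.27 in s6, 13.60 in s7, 13.69 in s8 and 13.52 in s10 in Sham. The groups did not overlap, and it rose by 0.84 ± 0.16 (limma adjusted p = 0.0121). GEM, a small GTPase that restrains L-type channels, rose by 0.96 ± 0.21 (limma adjusted p = 0.0206), with 4 CTEPH libraries above Sham and s3 at 8.91 within its range of 8.40 to 9.04. CALM2, a calmodulin gene, rose by 0.51 ± 0.13 (limma adjusted p = 0.0405), with no overlap between the groups (13.41 to 13.94 in CTEPH and 13.13 to 13.35 in Sham). CALM3, chosen after its values were seen, differed by 0.39 ± 0.19 and did not pass (limma adjusted p = 0.256). CAMKK1, a kinase that activates other calmodulin-dependent kinases, rose by 1.34 ± 0.33 (limma adjusted p = 0.0387) and was highest in s3, s4 and s5 (11.25, 10.99 and 10.59), with s9 at 9.28 inside the Sham range. PRKAR1A kept its call in all 10 refits without 1 library, and GEM, CAMKK1, CALM2 and SCN7A lost theirs in 4, 8, 9 and 9 of them (limma adjusted p of up to 0.0563, 0.0954, 0.0939 and 0.0980).

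SCN7A, a sodium-sensing channel homologue found in glia and nerve, was the gene that fell. It was at 6.69 in s1, 6.92 in s3, 7.997 in s4, 7.64 in s5 and 8.57 in s9 in CTEPH, and 8.74 in s2, 8.89 in s6, 9.29 in s7, 8.68 in s8 and 8.53 in s10 in Sham. Only s9 reached the Sham range, and the difference was -1.26 ± 0.32 (limma adjusted p = 0.0423). All 5 measured Schwann cell and neural markers had negative fold changes, and of these SOX10 and L1CAM fell by 1.09 and 0.90 (limma adjusted p = 0.0297 and 0.0302). None of them was at 0 in any library, and their part in the SCN7A difference was not tested. Below the threshold the rule named REEP5 (0.50 ± 0.14), PPP1R1A (-0.79 ± 0.27), ITPR3 (-0.76 ± 0.27), ORAI3 (0.46 ± 0.18), ITPRID2 (-0.46 ± 0.18) and CACNB4 (-1.19 ± 0.48), with limma adjusted p of 0.0633 to 0.186. By list, 1 of 18 reticulum genes rose, 1 of 11 calcium channel genes rose, 1 of 15 sodium and pacemaker genes fell and 2 of 18 kinase genes rose. By limma 0 of 9 pump and exchanger genes, 0 of 11 mitochondrial calcium genes and 0 of 18 store-operated and TRP genes passed, with 1, 0 and 4 at an unadjusted p under 0.05.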

How the data were processed

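RNA from right ventricular biopsies of 10 pigs was sequenced, 1 library per pig, per the labels. The labels name polyA RNA as the molecule and a stranded total RNA kit. Listed per the submitters' processing notes are featureCounts, edgeR 3.36.0, limma 3.50.0, cutadapt 1.15, bcl2fastq 2.18.12, FastQC 0.11.5 and the build Sscrofa11.1. Their roles and order, the aligner, the annotation, the strand setting and any filter on low genes are not stated there, so reads shared by overlapping genes cannot be assigned. The deposited values are log2 values brought by the authors to nearly 1 distribution in all libraries, as quantile normalization does, which hides any change common to most genes. Values below 11.17 follow from whole counts as quantile means of log2(2 × count + 1), and 80.3% of values were read back (largest error 5.0e-09, tolerance 1e-06). The 11355 genes with counts in all libraries gave relative depth, as the median ratio to the mean library over the 10278 of them with at least 5 counts in each. Counting error adds to the spread of low genes, and total depth is unknown.

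Symbols were matched by Ensembl identifier (12378 genes matched, 3260 not) and coordinates taken from RefSeq genes of Sscrofa11.1, by symbol and counted from 1. The test was limma 3.58.1 (R 4.3.3), with an intensity trend, no covariate, two-sided tests and Benjamini-Hochberg adjustment over all genes. It was tested first on simulated data with the same SD in both groups, so a wider spread in CTEPH was not covered. Of 6 ratios planned, 5 could be computed, since JPH2 was not matched. The alternatives were no trend, a robust fit, library weights, leaving out the lowest 25% of genes, centring on cardiomyocyte markers, voom on recovered counts and leaving out each library. A marker list's summed level is the log2 of the sum of its linear values. Named genes are every measured member and, of the other pathway genes, those called, filled up to 12 by smallest p. The members and lists were chosen with earlier results of these data known.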

Additional observations from a re-analysis of the deposited data

Results flagged for a closer look

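Among the 38 genes and the 12 named pathway genes, 7 of 100 groups of 5 libraries held a library far from the other 4, by Dixon's test at the 95% level, which chance alone does in about 1 of 20 groups. In CTEPH, ATP2B1 was low in s3 (10.231, against 10.454 to 10.534 in the others), CACNB2 high in s1 (11.242, against 10.414 to 10.570), CAMK2B low in s9 (9.927, against 11.074 to 11.496) and GEM low in s3 (8.910, against 9.678 to 9.876). In Sham, ATP2B4 was high in s8 (13.102, against 12.145 to 12.400), STIM1 low in s2 (8.441, against 8.894 to 8.950) and PIEZO1 high in s6 (10.601, against 10.150 to 10.251). No library was flagged in more than 2 of these genes.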

How the results depend on the processing

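ATP1B1 and PRKAR1A stayed called under all 15 alternatives run for each. The count of the 38 genes called moved from 1 to 6 with library weights (ATP1B1, SLN, CASQ1 and FKBP1B higher, CAMK2D and CAMK2G lower) and to 2 when libraries were centred on cardiomyocyte markers (ATP1B1 and SLN). The weights were lowest for s1 (0.476) and s9 (0.508), the CTEPH libraries with the least SLN and CASQ1, and highest for s10 (2.16). The 6 calls are therefore not independent of the refits without s1 or s9. With voom on recovered counts the count was 0 of the 19 genes that could be tested, with 3 at an unadjusted p under 0.05, where ATP1B1 is too abundant to be read back. Of all 11355 genes tested with voom, 322 were called higher and 164 lower, so a count of 0 among 19 genes says little about them. Leaving out 1 library gave 1 to 4 called genes, 4 without s1 and 4 without s9. For the other pathway genes the count went from 5 to 2 without the intensity trend and to 2 of 58 with voom, and ranged from 1 to 7 without 1 library. Over all genes, library weights raised the count from 723 to 1269, and leaving out 1 library gave 401 to 961. Centring on cardiomyocyte markers moved the split from 443 higher and 280 lower to 461 and 186. The median fold change of the 38 genes ranged from -0.11 to 0.018 over these alternatives.

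Near-zero differences changed sign in some settings. With library weights RYR2 was at 0.045, PLN at -0.0084, HCN2 at 0.13 and TRPM4 at 0.0052, and with voom HCN2 was at 0.051. Without 1 library the fold change ranged from -0.17 to 0.18 for RYR2, -0.13 to 0.13 for HRC, -0.022 to 0.30 for SRL, -0.13 to 0.079 for ATP2A2, -0.048 to 0.064 for PLN, -0.029 to 0.068 for ATP2B1, -0.35 to 0.40 for CACNA2D2, -0.21 to 0.21 for HCN2, -0.13 to 0.25 for CAMK2A and -0.44 to 0.12 for TRPC6. The log2 ratio difference ranged from -0.15 to 0.015 for ATP2A2 to PLN, 0.41 to 0.92 for CASQ2 to RYR2 and -0.044 to 0.37 for CAMK2B to CAMK2D. The causes were not tested. No paired analysis was run, since the labels give no pairing of CTEPH with Sham pigs.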
